A study of Mus musculus with 3 samples.

Results

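Transcripts of 8 genes of the NRF2 antioxidant pathway were followed in mouse embryonic stem cells whose protein synthesis had been blocked with cycloheximide. The genes were taken by symbol: Nfe2l2, which encodes the transcription factor NRF2, Keap1, which encodes its inhibitor, and 6 target genes (Hmox1, Nqo1, Gclm, Gclc, Txnrd1 and Srxn1). All 8 were among the 32285 genes listed for each library, and all 8 had a mean of at least 10 CPM (UMIs of a gene scaled to a common library total) over the 3 libraries, as did 7608 genes in all. E14 cells, an embryonic stem cell line of 129/Ola background, were grown with serum and leukemia inhibitory factor and treated from 24 h after seeding. The groups were cells given 250 µg/mL cycloheximide for 3 h, cells given the same dose for 6 h, and control cells that received ethanol without cycloheximide for 6 h. Ethanol is listed at 0.007% for all 3 groups. Cells were frozen before they were barcoded, and no control was treated for 3 h. The assay was droplet-based single-cell RNA sequencing, which reads the 3′ ends of polyadenylated transcripts and counts molecules by unique molecular identifiers (UMIs). Each group was 1 library of 1 cell line, so no test between conditions was possible. Every interval given is a 95% interval that covers counting error only.

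NRF2 (from Nfe2l2) is a leucine zipper factor that binds antioxidant response elements together with small MAF proteins. KEAP1 holds it in a CUL3 ubiquitin ligase complex, so that the NRF2 protein is made and destroyed continuously until oxidants or electrophiles modify KEAP1. Its target genes supply glutathione, reduce thioredoxin, detoxify quinones and break down heme. In cultured stem cells the pathway is known mainly as a guard against oxidative damage.

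Barcodes with at least 15000 UMIs and 1 to 20% mitochondrial UMIs were taken as cells, which left 2187 cells of the control, 1739 of the 3 h library and 2554 of the 6 h library. Their UMIs summed to between 106842407 and 140321458 per library, and the median per cell was 43160 in the control, 51726 after 3 h and 46200 after 6 h. The mitochondrial share of UMIs was 4.57% in the control, 3.51% after 3 h and 2.94% after 6 h, and its part in the ratios below was not tested. At most 3 cell barcodes were shared between any pair of libraries. All 10 embryonic stem cell markers reached at least 10 CPM in every library. The summed level of 7 fibroblast markers was 1.29 to 2.48 CPM, with Col3a1, Postn and Lum at 0 in each library. Summed levels of other lineage lists were 8.94 to 12.4 CPM for 6 endoderm genes, 3.34 to 5.10 CPM for 4 mesoderm genes and 8.61 to 21.4 CPM for 4 trophoblast genes. The 4 neural genes summed to 84.0 CPM in control cells, 56.4 CPM after 3 h and 34.5 CPM after 6 h, mostly from Tubb3, a tubulin gene.

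The pathway split in its transcripts. Nfe2l2 and Hmox1 stood higher after cycloheximide, Keap1 stayed near the control, and the other 5 target genes (Nqo1, Gclm, Gclc, Txnrd1 and Srxn1) were lower after 3 h and lower still after 6 h. The median log2 ratio of the 8 genes was -0.40 after 3 h and -0.59 after 6 h, whereas the median of all 7608 genes was 0.11 and 0.17. For the 6 target genes alone the medians were -0.54 and -0.73. None of the 8 genes was at least 2-fold lower after 3 h, where 0.513% of all genes were, and 2 of 8 (Txnrd1 and Srxn1) were after 6 h, against 2.41% of all genes. Srxn1, at 18.7, 10.3 and 8.10 CPM in the control, 3 h and 6 h libraries, passed the minimum mean of 10 CPM only through the control. None was at least 2-fold higher, where the background was 4.32% after 3 h and 8.65% after 6 h. At a lesser fold of 1.5, 3 of 8 genes were lower after 3 h (2.13% of all genes) and 4 of 8 after 6 h (7.79%). By the same fold 1 of 8 was higher after 3 h (13.9% of all genes) and 2 of 8 after 6 h (22.1%). Hmox1 lay just outside the lesser fold after 3 h, at 1.4997-fold, and Gclm just inside it after 6 h, at 0.636 of the control.

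**Figure D1:**
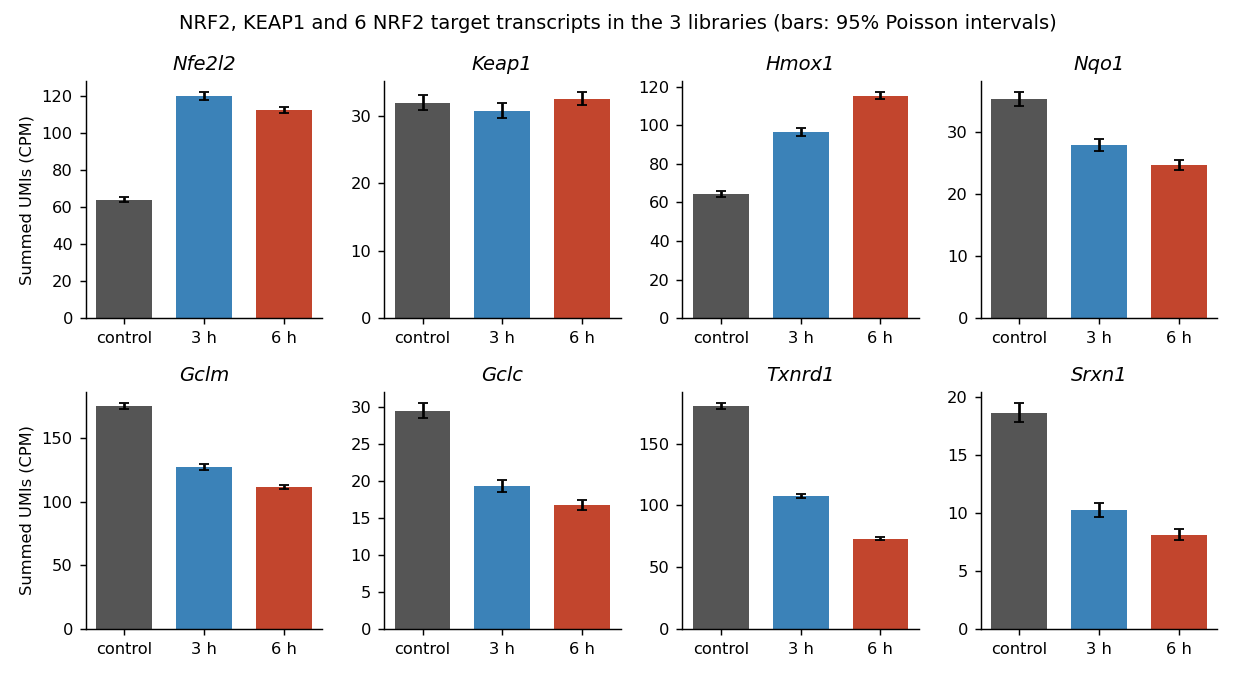
Summed UMIs of each gene in CPM (vertical axes, each from 0 with its own scale) in the control, 3 h and 6 h libraries, with 95% Poisson intervals as error bars. Nfe2l2 and Hmox1 are higher in both treated libraries, Keap1 is near 32 CPM in all 3, and the 5 other genes step down from control to 3 h to 6 h.

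Among the regulators, Nfe2l2 (ENSMUSG00000015839, GRCm38 chromosome 2, 75675513 to 75704641, minus strand) had 64.0 CPM (Poisson interval 62.5 to 65.5) in control cells, 119.7 CPM (117.7 to 121.8) after 3 h and 112 CPM (110.4 to 114) after 6 h. Both treated libraries were above the control, and the 6 h library was slightly below the 3 h library. The log2 ratio to control was 0.90 after 3 h (interval 0.86 to 0.95) and 0.81 after 6 h (0.77 to 0.85), and 94.4% of all genes had a lower ratio after 3 h and 86.6% after 6 h. Keap1 (ENSMUSG00000003308, chromosome 9, 21229730 to 21239361, minus strand), the substrate adaptor that presents NRF2 for ubiquitination, had 31.9 CPM (30.9 to 33.0) in control cells, 30.7 CPM (29.7 to 31.8) after 3 h and 32.5 CPM (31.6 to 33.5) after 6 h. The 3 Keap1 intervals overlap. Its log2 ratio was -0.06 after 3 h (-0.12 to 0.01) and 0.03 after 6 h (-0.04 to 0.09), and its sign depended on the scaling: it was 0.21 after 3 h by mean UMIs per cell and -0.26 after 6 h under TMM factors.

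Letters of the antioxidant response element were searched near the start sites of the members, and NRF2 binding was not measured. RefSeq start-site windows on GRCm38.p6, 250 bases before to 50 after each start, were found for 6 of the 8 genes, in 8 windows. Hmox1 and Gclc had no window and were not searched, nor were bases outside the windows of any gene. The core of the antioxidant response element was searched as TGACNNNGC on both strands. It occurred in 1 window each of Nfe2l2, Gclm, Txnrd1 and Srxn1, in 12.4% of all 32851 windows and in 14.1% of the 7705 windows of measured genes. A second motif, TGANTCAGC, which is bound by NRF2 with small MAF proteins and allows any base where the core has C, occurred in the Srxn1 window and in 1.19% of all windows. It contains the AP-1 site TGANTCA, which 7.81% of all windows hold. Of the windows of measured genes, 0.934% held the second motif and 4.19% the AP-1 site. The Srxn1 window held 2 AP-1 sites, 1 inside the second motif and 1 apart from it, 102 bases upstream. The second motif was chosen after the Srxn1 window had been seen. The matches are given with 10 bases on each side, 5′ to 3′ on the strand of the gene, the matched letters in capitals, because these motifs define the pathway.
Nfe2l2, chr2:75704885-75704913, 240 bases upstream: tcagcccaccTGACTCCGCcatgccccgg
Gclm, chr3:122245413-122245441, 134 bases upstream, motif on the other strand: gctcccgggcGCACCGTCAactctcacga
Txnrd1, chr10:82859104-82859132, 92 bases upstream of the start in the second of its windows, motif on the other strand: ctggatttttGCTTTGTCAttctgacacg
Srxn1, chr2:152105469-152105497, 45 bases upstream, second motif: aaattcacccTGAGTCAGCggccgggcgc
Srxn1, chr2:152105542-152105570, 29 bases into the transcript, motif on the other strand: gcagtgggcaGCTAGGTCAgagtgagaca
The windows of Keap1 and Nqo1 did not hold these letters. Among the 6 genes searched, those with a match therefore included Nfe2l2, which was higher after cycloheximide, and Gclm, Txnrd1 and Srxn1, which were lower. Hmox1, the target gene that was higher, was not among the genes searched.

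The genes of glutathione synthesis were both lower. Gclc (ENSMUSG00000032350, chromosome 9, 77754535 to 77794485, plus strand) encodes the catalytic subunit of glutamate-cysteine ligase, the rate-limiting enzyme of glutathione synthesis. It had 29.5 CPM (28.5 to 30.6) in control cells, 19.3 CPM (18.5 to 20.2) after 3 h and 16.8 CPM (16.1 to 17.5) after 6 h, in steps that did not overlap. The log2 ratio of Gclc was -0.61 after 3 h (-0.69 to -0.53) and -0.81 after 6 h (-0.89 to -0.74). Gclm (ENSMUSG00000028124, chromosome 3, 122245557 to 122270732, plus strand) encodes the modifier subunit of the same enzyme. It had 175 CPM (173 to 178) in control cells, 127 CPM (125.2 to 129.4) after 3 h and 111 CPM (109.7 to 113) after 6 h, again without overlap. Its log2 ratio was -0.46 after 3 h (-0.49 to -0.43) and -0.65 after 6 h (-0.68 to -0.62). The subunits thus differed in ratio at both times, with intervals apart, Gclc being the lower relative to its control. Gclm overlaps the antisense gene Gm17494, which had 2.75 to 3.75 CPM, and whether counting used strand is not given in the sources used here.

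Txnrd1 and Srxn1, of the thioredoxin and peroxiredoxin system, had the lowest ratios of the 8 genes at both times. Txnrd1 (ENSMUSG00000020250, chromosome 10, 82833951 to 82897712, plus strand) encodes the cytosolic reductase that recycles thioredoxin. It had 180.3 CPM (178 to 183) in control cells, 107.6 CPM (105.6 to 109.6) after 3 h and 73.0 CPM (71.6 to 74.4) after 6 h. Each step down was larger than its counting error, and the log2 ratio to control was -0.74 after 3 h (-0.78 to -0.71) and -1.30 after 6 h (-1.34 to -1.27). Only 1.18% of all genes had a lower ratio after 3 h and 1.14% after 6 h. Srxn1 (ENSMUSG00000032802, chromosome 2, 152105516 to 152111376, plus strand) encodes sulfiredoxin, which restores overoxidised peroxiredoxins. Its 2081 UMIs in control cells made 18.7 CPM (17.9 to 19.5), its 1097 UMIs after 3 h made 10.3 CPM (9.67 to 10.9) and its 1136 UMIs after 6 h made 8.10 CPM (7.63 to 8.58). The log2 ratio of Srxn1 was -0.86 after 3 h (-0.97 to -0.76) and -1.21 after 6 h (-1.31 to -1.10). The Txnrd1 and Srxn1 intervals overlap at both times, so their order is not taken as resolved by the counts.

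Txnrd1 is also a selenoprotein gene, and it was the only 1 of the 8 with a selenocysteine codon in GENCODE M21. The last 10 codons of its longest coding sequence are shown because the selenocysteine of the active site is read from an in-frame TGA, in capitals, 2 codons before the stop codon.
Txnrd1, end of the coding sequence: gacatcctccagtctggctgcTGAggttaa
Txnrd1 overlaps Eid3 on the same strand, which had 1.10 to 2.22 CPM. Its own transcript variants cannot be told apart in 3′ counts.

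Nqo1 and Hmox1, which act on quinones and heme, went opposite ways. Nqo1 (ENSMUSG00000003849, chromosome 8, 107388225 to 107403206, minus strand) encodes a quinone reductase often used as a readout of NRF2 activity. It had 35.3 CPM (34.2 to 36.5) in control cells, 27.9 CPM (27.0 to 29.0) after 3 h and 24.7 CPM (23.9 to 25.5) after 6 h. That is a log2 ratio of -0.34 after 3 h (-0.41 to -0.27) and -0.52 after 6 h (-0.58 to -0.45), the nearest to 0 among the 5 lower genes. Hmox1 (ENSMUSG00000005413, chromosome 8, 75093621 to 75100589, plus strand) encodes heme oxygenase 1, the inducible enzyme that opens the heme ring. It had 64.3 CPM (62.9 to 65.9) in control cells, 96.5 CPM (94.6 to 98.4) after 3 h and 115 CPM (113.6 to 117) after 6 h. The Hmox1 libraries did not overlap, and the order was control, 3 h, 6 h. Its log2 ratio was 0.58 after 3 h (0.54 to 0.63) and 0.84 after 6 h (0.80 to 0.88).

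The steps between the treated libraries separated the genes further. From 3 h to 6 h the log2 ratio was -0.56 for Txnrd1 (-0.60 to -0.52), -0.34 for Srxn1 (-0.46 to -0.22) and between -0.18 and -0.20 for Nqo1, Gclm and Gclc. Hmox1 was higher by 0.26 (0.22 to 0.29), whereas Nfe2l2 had -0.09 (-0.13 to -0.06). Keap1 had 0.08 (0.02 to 0.15). The median of all genes over the same step was 0.04, and 2.75% of genes had a lower ratio than Txnrd1. None of the 8 genes was at least 2-fold higher or lower between 3 h and 6 h, where 0.145% and 0.657% of all genes were. None passed 1.5-fold over that step either, where 1.74% of all genes were higher and 2.52% lower.

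Scaling moved every ratio by a common amount. TMM factors shifted the median of all genes by -0.17 after 3 h and -0.29 after 6 h, and mean UMIs per cell by 0.27 and 0.11. Relative to the median of all genes, which such a shift leaves as it is, Txnrd1 stood at -0.86 after 3 h and -1.47 after 6 h, and Srxn1 at -0.97 and -1.37. Gclc stood at -0.73 and -0.98, Gclm at -0.57 and -0.82, and Nqo1 at -0.45 and -0.68. Nfe2l2 stood at 0.79 and 0.64, Hmox1 at 0.47 and 0.68, and Keap1 at -0.17 and -0.14. Over 8 alternatives the 5 lower genes stayed below 0 and Nfe2l2 and Hmox1 above 0 at both times, Nqo1 coming nearest with -0.07 after 3 h by mean UMIs per cell. Among all genes past 2-fold, 89.4% were higher after 3 h and 78.2% after 6 h by CPM, against 77.5% and 47.4% under TMM factors.

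**Figure D2:**
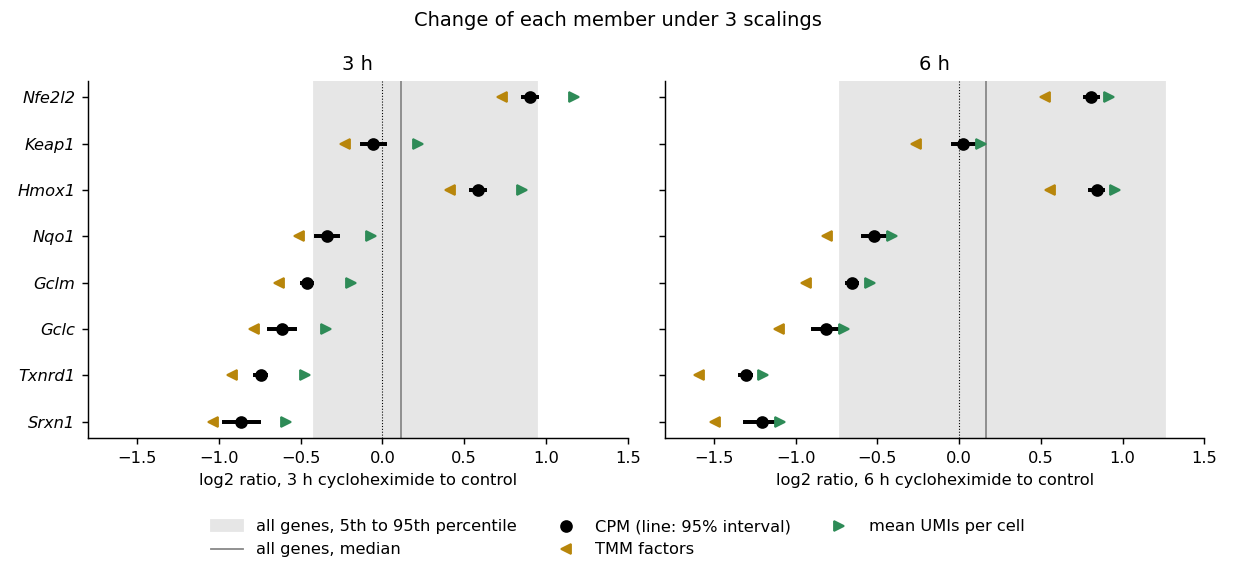
Log2 ratio of each gene to the control after 3 h (left) and 6 h (right) by CPM (circles, with 95% intervals), TMM factors and mean UMIs per cell (triangles). The grey band spans the 5th to 95th percentile of 7608 genes and the grey line is their median; Txnrd1, Srxn1 and Gclc lie left of the band at both times by CPM, while Keap1 crosses 0 with the scaling.

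The wider pathway list held 67 genes, the 8 members included, of which 54 had a mean of at least 10 CPM. By CPM, 36 of these 54 were below the control at both times and 13 above it, where 29.99% of all genes were below and 58.1% above. The tally turned with the scaling: 48 were below and 4 above under TMM factors (52.5% and 35.6% of all genes), and 17 below and 24 above by mean UMIs per cell (10.7% and 71.3%). After 3 h, 1 was at least 2-fold higher (4.32% of all genes) and 3 at least 2-fold lower (0.513%), of which Ftl1 depends on a close copy. After 6 h, 1 was at least 2-fold higher (1.85%, against 8.65% of all genes) and 7 at least 2-fold lower (12.96%, against 2.41%). Under TMM factors Sqstm1, Gclc, Sesn2 and Me1 were also at least 2-fold lower after 6 h. Without the 8 members 5 of 46 (10.9%) were at least 2-fold lower after 6 h, against 2.41% of all genes. The 7 and the 5 both include Ftl1, whose log2 ratio after 6 h was 0.00337 when summed with its copy. Both also include Chac1, and the 7 include Srxn1, genes that passed the minimum of 10 CPM only through their control levels. The median log2 ratio of the 54 was -0.14 after 3 h and -0.12 after 6 h, beside 0.11 and 0.17 for all genes.

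By CPM, 3 of the 9 measured regulators, Nfe2l2 and Keap1 included, were above the control and 6 below it after 3 h. Their median log2 ratio was -0.06. After 6 h 5 were above and 4 below, with a median of 0.03. Of all genes, 64.1% were above the control at each time. Rbx1, the RING subunit of the KEAP1 ligase, gave the most UMIs of this group. It had 575 CPM in control cells, 571 CPM after 3 h and 635 CPM after 6 h. Signs near 0 turned with the scaling: the Rbx1 log2 ratio after 3 h was -0.01 by CPM, -0.19 under TMM factors and 0.26 by mean UMIs per cell. Mafg, a small MAF partner of NRF2, had 49.4 CPM in control cells, 37.1 CPM after 3 h and 23.7 CPM after 6 h, a log2 ratio of -1.06 after 6 h (-1.12 to -0.997). By CPM it was the only 1 of the 9 past 2-fold (2.41% of all genes were at least 2-fold lower after 6 h). It was not past it by mean UMIs per cell (-0.95), and under TMM factors Sqstm1, the autophagy receptor that binds KEAP1, was past it as well (-1.24).

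In the glutathione group 2 of 12 measured genes were at least 2-fold lower after 6 h (2.41% of all genes) and none higher (8.65%). Chac1, which degrades glutathione and is also an ATF4 target, had 22.6 CPM in control cells, 6.79 CPM after 3 h and 2.58 CPM after 6 h, a log2 ratio of -3.13 after 6 h (-3.30 to -2.97). Its mean of 10.7 CPM passed the minimum of 10 CPM only through the control, so the minimum itself favoured counting it as lower. Gstp1, a glutathione transferase, had 25.7 CPM in control cells, 13.03 CPM after 3 h and 9.86 CPM after 6 h. Gstp1 has a close copy in Gstp2, and summing both left the log2 ratio at -0.95 after 3 h and -1.36 after 6 h. Gpx4, the phospholipid hydroperoxidase, had 716 CPM, 724 CPM and 759 CPM in the control, 3 h and 6 h libraries, so the most detected gene of this group was close to its control.

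Of 12 measured thioredoxin and peroxiredoxin genes, the 2 past 2-fold downward after 6 h were the members Txnrd1 and Srxn1 (2.41% of all genes). Txnip, which binds and inhibits thioredoxin, was the gene past 2-fold upward (4.32% of all genes after 3 h and 8.65% after 6 h). It had 48.5 CPM in control cells, 438 CPM after 3 h and 445 CPM after 6 h. Its log2 ratio was 3.17 after 3 h (3.13 to 3.22) and 3.20 after 6 h (3.16 to 3.24). Prdx1, the peroxiredoxin with the most UMIs, had 1565 CPM, 1390.3 CPM and 1281 CPM in the same order.

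Among 12 measured quinone, heme and carbonyl genes, Cbr3 and Ftl1 were at least 2-fold lower at both times by CPM. Of all genes, 0.513% were after 3 h and 2.41% after 6 h. Cbr3, a carbonyl reductase, had 41.4 CPM in control cells, 20.4 CPM after 3 h and 12.6 CPM after 6 h, a log2 ratio of -1.02 after 3 h (-1.09 to -0.945) and -1.72 after 6 h (-1.799 to -1.64). By mean UMIs per cell the 3 h ratio of Cbr3 was -0.75, short of 2-fold. Ftl1, the ferritin light chain, had 214 CPM in control cells, 82.8 CPM after 3 h and 71.5 CPM after 6 h. The copy Ftl1-ps1 held 3479 CPM in the control, however, and the summed ratio was 0.16 after 3 h and 0.00337 after 6 h, so the Ftl1 value depends on how reads were divided between the copies. Fth1, the ferritin heavy chain with the most UMIs of the group, had 2123 CPM, 1779 CPM and 1658 CPM. None of the 6 measured genes of NADPH supply and none of the 3 for superoxide and peroxide removal was past 2-fold by CPM. With 2.41% of all genes at least 2-fold lower and 8.65% higher after 6 h, groups this small could hold none anyway. Taldo1, the pentose phosphate enzyme with the most UMIs of the NADPH genes, had 235 CPM in control cells, 252 CPM after 3 h and 282 CPM after 6 h. Sod2, the mitochondrial superoxide dismutase, had 285 CPM, 278 CPM and 266 CPM in the same order.

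**Figure D3:**
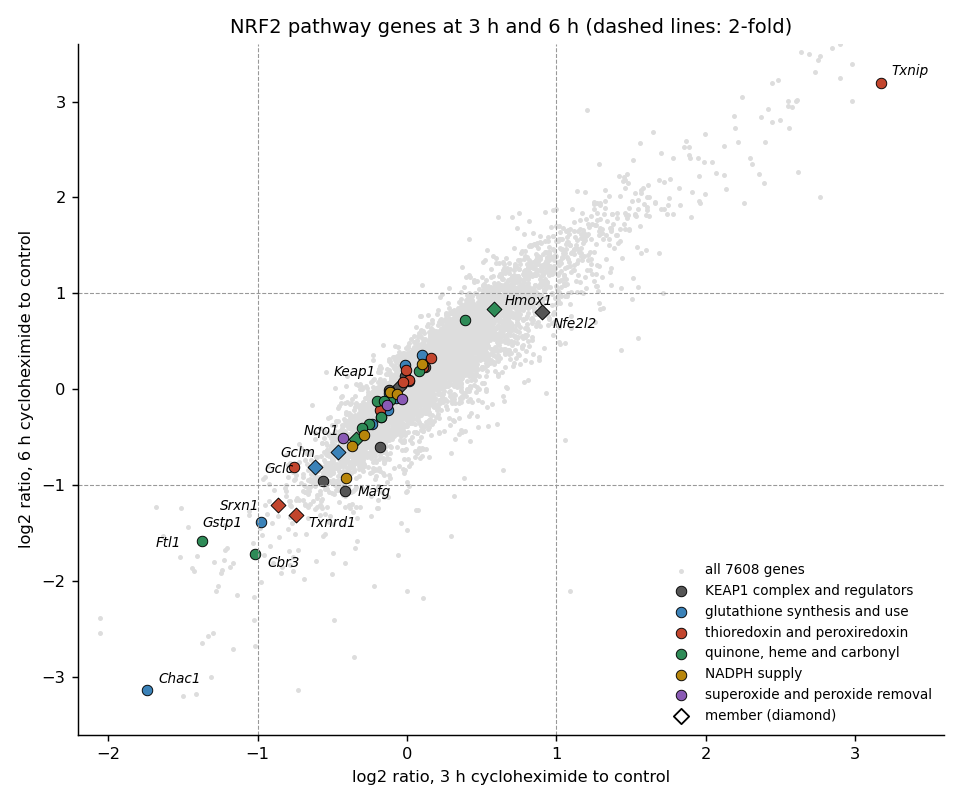
Log2 ratio to control after 3 h (horizontal) and 6 h (vertical) for the 54 measured pathway genes, coloured by role, with the 8 members as diamonds and all 7608 genes in grey (13 lie outside the axes). Both axes share the control library; among the pathway genes Chac1 lies lowest and Txnip highest, and Nfe2l2 and Hmox1 are the members in the upper right.

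Shares of cells with a UMI were taken after thinning each cell to 15000 UMIs, which left out no cell. A Txnrd1 UMI was found in 91.6% of control cells (exact binomial interval 90.3 to 92.7), 78.3% after 3 h (76.2 to 80.2) and 65.8% after 6 h (63.9 to 67.7). Unthinned, these shares were 99.2%, 97.8% and 93.4%. Cells with at least 5 Txnrd1 UMIs made up 16.9%, 3.51% and 1.253% in the same order. The most common number was 2 UMIs in the control and 1 UMI in each treated library. Poisson counts of the same thinned means would give a Txnrd1 UMI in 93.7%, 80.2% and 67.7% of cells. The thinned share thus nearly follows from the mean, and it cannot tell more cells from more molecules per cell.

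Gclm had a UMI in 90.6% of control cells (89.3 to 91.8), 81.8% after 3 h (79.9 to 83.6) and 78.9% after 6 h (77.3 to 80.5). Srxn1 had one in 24.9% (23.1 to 26.7), 13.5% (11.9 to 15.2) and 10.7% (9.55 to 11.99), Gclc in 33.6% (31.6 to 35.6), 24.8% (22.8 to 26.9) and 22.3% (20.7 to 24.0), and Nqo1 in 38.04% (36.0 to 40.1), 34.6% (32.3 to 36.8) and 29.3% (27.5 to 31.1). The order of each gene's shares was that of its CPM. Nfe2l2 had a UMI in 59.7% of control cells (57.6 to 61.7), 81.8% after 3 h (79.9 to 83.6) and 78.3% after 6 h (76.7 to 79.9). For Hmox1 the shares were 57.2% (55.1 to 59.3), 71.7% (69.5 to 73.8) and 78.6% (76.9 to 80.2). Keap1 shares of 35.3%, 35.1% and 37.5% had overlapping intervals.

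Unthinned shares were 98.99%, 98.2% and 97.5% for Gclm, 55.2%, 41.2% and 33.0% for Srxn1, and 68.6%, 62.6% and 53.3% for Gclc. They were 74.3%, 72.9% and 65.7% for Nqo1, 90.9%, 97.9% and 97.7% for Nfe2l2, 87.3%, 94.1% and 96.7% for Hmox1, and 73.5%, 76.5% and 74.8% for Keap1. No cell type lacking these transcripts was present to measure the share that free RNA gives. Barcodes with 10 to 100 UMIs held 199 CPM of Txnrd1 in the control, 131 CPM after 3 h and 101.8 CPM after 6 h, and 56.97, 76.9 and 87.0 CPM of Hmox1, in the same order as the cells. The shares therefore count barcodes with a UMI, not expressing cells.

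**Figure D4:**
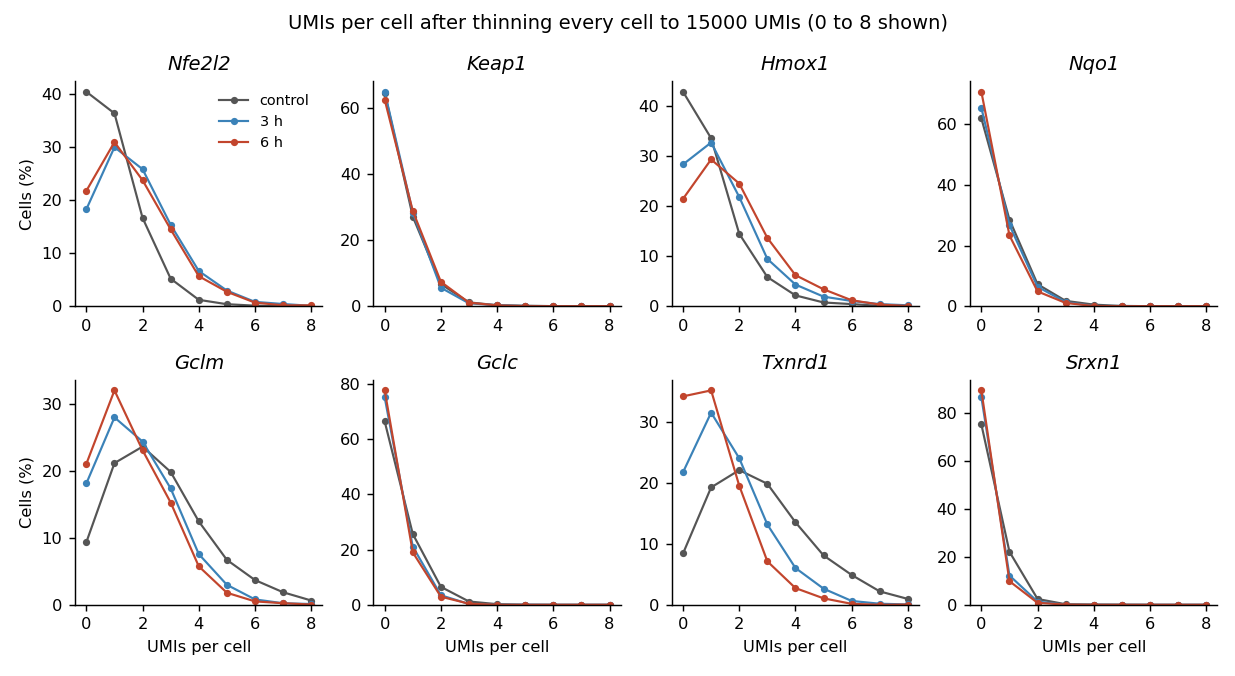
Percent of cells (vertical) with 0 to 8 UMIs of each gene (horizontal) after thinning every cell to 15000 UMIs, one line per library. Txnrd1 and Gclm shift left after cycloheximide, Nfe2l2 and Hmox1 shift right, and the Keap1 lines lie over each other.

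In the control, Hmox1 varied from cell to cell more than Nfe2l2, the member nearest to it in mean. Its excess squared coefficient of variation, the variance beyond that of Poisson counts in units of the squared mean, was 0.375 in the control, 0.233 after 3 h and 0.129 after 6 h. In 5 further thinnings it ranged from 0.260 to 0.356 in the control, 0.140 to 0.243 after 3 h and 0.0939 to 0.130 after 6 h. The control value first given lay above its own range, and the 3 ranges did not overlap. All thinnings used the same cells, so these ranges leave out the sampling of cells and of libraries. The highest count in 1 thinned control cell was 11 UMIs, with a mean of 0.957. Of 875 genes with a mean similar to that of Hmox1 in the control, 96.2% had a lower value, and their median was 0.0740. After 6 h 83.7% of 656 such genes were lower. Nfe2l2, with a similar mean in the control, had 0.0444 and ranged from 0.0439 to 0.124 in the further thinnings, on both sides of the median of its like genes (0.0757). Values of Srxn1 were too sparse to read, ranging from -0.200 to 0.876 over thinnings after 6 h.

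When each library was divided into 3 equal parts (low, middle, high) by UMIs per cell, the 5 lower genes were below the control in every part at both times, and Nfe2l2 and Hmox1 above it. The Txnrd1 ratio after 6 h was -1.13 in the low part (-1.20 to -1.05), -1.33 in the middle part (-1.39 to -1.26) and -1.36 in the high part (-1.41 to -1.31). Hmox1 after 6 h had 0.65 (0.56 to 0.75), 0.99 (0.92 to 1.07) and 0.83 (0.77 to 0.88) in the same order. For Gclm the parts lay between -0.67 and -0.62. The parts were not of equal depth across libraries: median UMIs in the control, 3 h and 6 h libraries were 30930.0, 33457.5 and 32017 in the low parts, 43160, 51726 and 46185 in the middle parts, and 73552, 91309.5 and 78755 in the high parts.

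Within libraries the correlations among members over cells were near 0 at this depth. Pearson's r of log-transformed thinned counts, over the 21 pairs of the 7 members with at least 0.2 UMIs per cell, ranged from -0.03 to 0.06 in the control, -0.01 to 0.05 after 3 h and -0.03 to 0.04 after 6 h. These are descriptions over cells of 1 library in sparse counts. Among 6055 genes compared with Txnrd1, the highest mean r over the 3 libraries was with Hnrnpu (0.18), Ncl (0.17) and Hspa4 (0.17). Hmox1 went highest with Hist1h2ap (0.12), Hist1h2ae (0.10) and Ubb (0.08), with r for Hist1h2ap of 0.03 in the control, 0.14 after 3 h and 0.19 after 6 h. The 3 highest for Gclm were the ferritin gene Fth1 (0.10), H2afz (0.08) and Plk1 (0.08). Those for Nqo1 were Ftl1-ps1 (0.09), Apoe (0.08) and Fth1 (0.07). For Nfe2l2, Gclc and Keap1 the highest values were also small (0.07 with Ddx5, 0.07 with Mtss1 and 0.05 with Tuba1c). The highest mean r of a member pair was 0.035 (Nqo1 and Gclm). That is the highest of 21 pairs, whereas each value above is among the highest of 6055 genes, so the sizes cannot be compared. All are given as a description only.

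Over the 3 libraries, the genes of at least 20 CPM with a pair of log2 ratios nearest to Txnrd1 were Golgb1, Vim and AI506816, at Euclidean distances of 0.04 to 0.12 among 5569 candidates. Golgb1 had 84.2 CPM in control cells, 49.0 CPM after 3 h and 33.5 CPM after 6 h. Nearest to Srxn1 were Snhg20, mt-Nd5 and Vim, at 0.03 to 0.08. Each likeness rests on 3 libraries and on the same control.

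The 3′ untranslated regions of the longest coding transcripts differed among the members. The pentamer ATTTA, the unit of AU-rich elements, occurred 4 times in Txnrd1, 4 times in Gclc, 6 times in Gclm, 2 times in Srxn1 and 1 time each in Nqo1, Hmox1 and Nfe2l2, and it was not found in Keap1. Among 7465 genes with such a region, 65.5% held it. The nonamer TTATTTATT occurred 2 times in Txnrd1, in none of the other 7, and in 6.52% of all genes. The Gclm region was 4335 bases long and that of Nfe2l2 448 bases, so these counts are not independent of length. Per kilobase, Gclc had the most ATTTA pentamers of the 8, at 3.24, followed by Txnrd1 (2.40), Nfe2l2 (2.23), Hmox1 (1.75), Nqo1 (1.68), Gclm (1.38) and Srxn1 (0.916). The median of all genes was 1.30, and the higher and lower members were mixed in this order.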

How the data were processed

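Single-cell RNA was measured in 3 libraries. Each library was deposited as an unnormalized matrix of UMI counts for every gene and droplet barcode. It was made with Cell Ranger (4.0.0) and mm10, per the submitters' processing notes, and the annotation is not given in the sources used here. Cells were not called in the deposited matrices. UMI counts were summed over the cells of each library and scaled to CPM, and log2 ratios used a prior of 0.5 counts. Intervals are exact Poisson (levels), conditional binomial (ratios) and Clopper-Pearson (shares). Doublets were not removed; an alternative left out cells above 2 times the median UMIs. Alternatives also covered TMM factors (edgeR 4.0.16, R 4.3.3), mean UMIs per cell, other UMI and mitochondrial limits, a prior of 5 counts, floors of 50 CPM or none, and subtraction of 10% free RNA. Of the gene identifiers, 32235 matched GENCODE M21 (GRCm38), which gave positions and transcripts. Promoter windows are from RefSeq. Ratios and thinning were tested on simulated data. Python 3.11.15, numpy 2.4.6 and scipy 1.17.1 were used.

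The members and lists were chosen with earlier results of these data known. Pathway genes were named where past 2-fold with a mean of at least 10 CPM, or as the gene of each role with the highest mean CPM; Sqstm1, Sesn2 and Me1 are named for a count that changes with the scaling. Genes most like a member were the 3 nearest over libraries, for members past 2-fold, or over cells.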

Additional observations from a re-analysis of the deposited data

How the results depend on the processing

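Of the 16 ratios of the 8 genes, none changed sign or side of 2-fold under a prior of 5 counts, a minimum of 2000 or 30000 UMIs per cell, no mitochondrial limit, leaving out cells with over 2 times the median UMIs, or subtraction of 10% free RNA. TMM factors changed the sign of 1 and the side of 2-fold of 2 (Srxn1 at 3 h to -1.04, Gclc at 6 h to -1.10). Mean UMIs per cell changed the sign of 1 and the side of 1 (Nfe2l2 at 3 h to 1.17). The median of the 8 genes under TMM factors was -0.57 (3 h) and -0.87 (6 h), and -0.13 and -0.48 by mean UMIs per cell. At 3 h, 1 gene was at least 2-fold lower under TMM factors and 1 at least 2-fold higher by mean UMIs per cell. Of the pathway list, 5 genes at 3 h and 11 at 6 h were at least 2-fold lower under TMM factors, 2 were 2-fold higher at 3 h by mean UMIs per cell, and with a floor of 50 CPM 1 at 3 h and 2 at 6 h were lower. By mean UMIs per cell 2 were at least 2-fold lower at 3 h and 6 at 6 h, without Cbr3 and Mafg respectively.

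Of all genes, those at least 2-fold higher at 3 h were 2.89% under TMM factors, 9.33% by mean UMIs per cell, 2.76% with a floor of 50 CPM and 17.6% with no floor. At 6 h they were 4.68%, 11.2%, 5.58% and 28.6% in the same order. Those at least 2-fold lower were 0.841%, 0.276%, 0.272% and 6.30% at 3 h, and 5.19%, 1.85%, 1.498% and 7.002% at 6 h. The floors change which genes are tested, 2938 with 50 CPM and 23123 with none, and each scaling shifts all ratios of a comparison by 1 amount by construction. The median share of cells with a UMI over the 8 genes was 80.8%, 85.3% and 84.1% without thinning and 68.8%, 71.9% and 70.7% at a deeper thinning, for control, 3 h and 6 h. The deeper thinning kept 1987, 1592 and 2343 cells. Shares follow depth by construction, and with 1 library per group differences between cultures or preparations cannot be told apart from treatment. No paired analysis was possible because each group has 1 library.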
